A study of Mus musculus with 6 samples.

Results

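The genes described here are 41 genes of cytokinesis, the last step of cell division, chosen by name from the chromosomal passenger complex, the RhoA pathway, nonmuscle myosin, the midbody, and the ESCRT machinery of abscission. All 41 are among the 21269 genes of the deposited table. RNA was sequenced from HL-1 cells, a single cell line derived from mouse atrial cardiomyocytes, collected 48 hours after transfection with 50 nM of a locked nucleic acid (LNA) gapmer. Such a gapmer is a DNA oligonucleotide flanked by LNA bases, and RNase H cleaves the RNA to which it binds. There are 3 libraries transfected with a control gapmer (LNA Control) and 3 transfected with a gapmer against the long noncoding RNA Malat1 (LNA Malat1). No genotype differs between the groups, both received a transfection, and no untransfected library is analysed here. The labels do not say whether the libraries of a group came from separate cultures, so the p-values measure the spread between these libraries, which may be technical.

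A dividing cell splits its cytoplasm after the chromosomes have separated. The chromosomal passenger complex and Plk1 act at the central spindle, where Racgap1 and the kinesin Kif23 recruit the exchange factor Ect2. Ect2 activates the GTPase RhoA at the cell equator, and RhoA acts through the formins, which build actin filaments, and through the kinases Rock1, Rock2, and citron, which act on nonmuscle myosin II. The closed ring leaves an intercellular bridge around the midbody, which is loaded by Rab11 and Arf6 vesicles and cut by the ESCRT-III filament and the ATPase Vps4. When this step fails in a cardiomyocyte, the cell is left with more than one nucleus, the usual state of heart muscle cells of the adult mouse. The comparison bears on whether transcripts of this machinery differed when Malat1 was lowered, a question the study's work on binucleation raises.

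The values are normalized counts, read counts per gene divided by 1 factor per library and rounded by the authors. Library totals ran from 4831007 to 4921406 for LNA Control and from 4758777 to 4762957 for LNA Malat1, and the reads recovered from them numbered between 4512253 and 5592272. Malat1 itself had 5051, 5197, and 4369 normalized counts under LNA Control against 2833, 2792, and 2732 under LNA Malat1, which is 57.2% of the LNA Control mean. Of 12 cardiomyocyte markers, 11 were analysed here, with a summed level of 5844 to 6108 normalized counts in LNA Control and 5450 to 5653 in LNA Malat1. Of the 10 tested, Actn2 (means of 134.0 and 218.0) and Tnnt2 were higher in LNA Malat1 and Gata4, Tbx5, and Hand2 lower (limma adjusted p of at most 0.05). Tnnt2, Ryr2, Gata4, Nkx2-5, and Hand2 were expressed in every library, while the adult heavy chain Myh6 was listed at 0 to 7. The light chains Myl7 and Myl4 were low, at 18 to 32 and 30 to 49 normalized counts. Markers of other cells gave sums of 2928 to 3362 against 2685 to 2757 for 4 fibroblast genes, where Col1a1 and Postn were abundant and Col1a2 was listed at 0 or 1. They gave 1512 to 1678 against 1553 to 1701 for 4 smooth muscle genes, 32 to 36 against 54 to 81 for 2 macrophage genes, and 1 to 10 against 8 to 17 for the endothelial Pecam1. Of these genes, Cnn1 of smooth muscle and Cd68 and Csf1r of macrophages were higher in LNA Malat1 (limma adjusted p of at most 0.05). The part of other cells in the results below was not tested. The LNA Malat1 libraries all lay close to the sampling noise of each other. Replicates 1 and 3 differed by less than it (chi-square 0.949 per gene), and were kept as separate samples unless stated. The LNA Control libraries differed more, with a chi-square of 1.77 to 4.18 per gene. What this unequal spread does to the limma tests was not tested.

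The cytokinesis genes were expressed in HL-1 cells in both groups and changed little. Of the 41, 40 reached a mean of 5 normalized counts over the 6 libraries and were tested with limma over 15650 genes. At a Benjamini-Hochberg adjusted p of at most 0.05, 1 member was higher in LNA Malat1 (Rock1) and 6 were lower (Rab11a, Myh10, Arf6, Chmp2b, Aurka, and Cep55). These counts are 2.5% and 15.0% of the members tested, beside 14.3% higher and 14.0% lower among all genes tested. Most members are abundant: 39 of them averaged 50 or more normalized counts, and among all genes that did, 12.2% were higher and 19.7% lower. None of the 40 tested members reached a 1.5-fold change, which 10.9% of all genes tested did together with the adjusted p. Of the 10490 genes averaging 50 or more, 320 were higher and 349 lower by both criteria. At an unadjusted p of at most 0.05 (limma), 3 members were higher and 12 lower. The LNA Malat1 libraries lay all below the LNA Control libraries for 12 members (20.8% of all genes tested) and all above for 2 (20.5%). The groups overlapped for 26 members. Among the 10490 genes averaging 50 or more, 2986 lay all below and 1807 all above.

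The median log2 fold change of the members was -0.06, with 30 negative and 10 positive, beside 0.02 for all genes tested and -0.03 for the 10490 genes averaging 50 or more normalized counts. Their median size, ignoring sign, was 0.09 (median SE 0.06), beside 0.19 for all genes tested (median SE 0.10) and 0.14 for the genes averaging 50 or more (median SE 0.07). The 95% confidence interval stayed within 1.5-fold in either direction for 39 of the 40 members, all but Rock1, and within 1.25-fold for 32, as for 5443 of the 10490 genes averaging 50 or more. These values are on the log2(normalized count + 1) scale. In RNA from a whole culture, fewer cells in division and less transcript per dividing cell cannot be told apart. Which members pass rests in part on single libraries. Leaving out each library in turn gave 0 or 1 higher and 4 to 12 lower members. Without LNA Malat1 replicate 2 the higher member was Myh14 and not Rock1. The 12 came without LNA Control replicate 3, when Plk1, Prc1, Racgap1, Rab35, Iqgap1, Iqgap3, and Pdcd6ip passed and Cep55 did not.

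**Figure D1:**
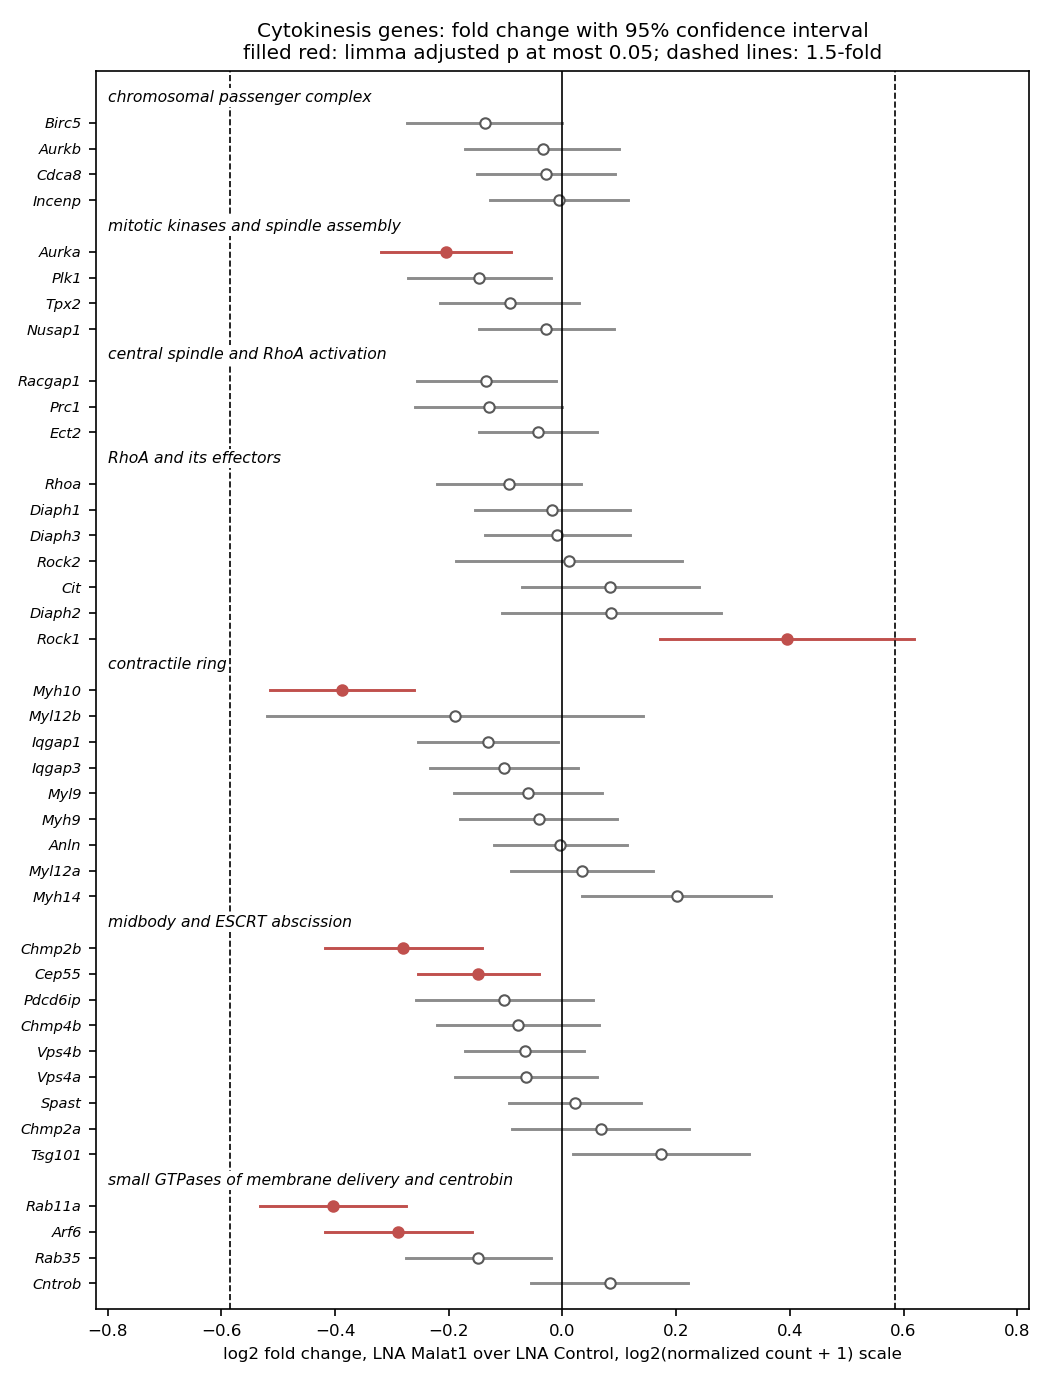
Log2 fold change of LNA Malat1 over LNA Control (x axis, log2(normalized count + 1) scale) with its 95% confidence interval for the 40 members tested, grouped by role. Filled red points passed a limma adjusted p of 0.05, dashed lines mark 1.5-fold, and the values run from -0.40 (Rab11a) to 0.39 (Rock1).

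The chromosomal passenger complex, which carries Aurora B to the central spindle, showed no change that passed the test. Aurkb, its kinase, had 603, 600, and 530 normalized counts under LNA Control against 536, 581, and 572 under LNA Malat1, and the groups overlapped. Its log2 fold change was -0.04 (SE 0.06, adjusted p = 0.71 by limma), with a 95% confidence interval of -0.17 to 0.10. Under quantile normalization, equal library totals, or voom weights it was just above 0, at most 0.02. The scaffold Incenp had 868, 899, and 838 against 908, 871, and 817, and Cdca8 (borealin) had 546, 556, and 528 against 564, 526, and 509. Birc5 (survivin) had the lowest value of the complex, -0.14 (SE 0.06, adjusted p = 0.124), from 403, 422, and 384 to 363, 390, and 347, again with overlapping groups.

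Of the mitotic kinases and spindle assembly factors, Aurka was lower. Aurka, which drives centrosome maturation and spindle assembly (chr2:172356190-172370535, minus strand, mm10), had 632, 649, and 597 normalized counts under LNA Control against 546, 547, and 535 under LNA Malat1. The groups did not overlap, and the log2 fold change was -0.20 (SE 0.05, adjusted p = 0.0116 by limma). Without LNA Control replicate 2 it was -0.18 (adjusted p = 0.0555), and without LNA Malat1 replicate 3 it was -0.20 (adjusted p = 0.0539). Plk1, the Polo-like kinase that starts furrow formation, had 479, 440, and 429 against 407, 398, and 412, also with groups apart, and a log2 fold change of -0.15 (SE 0.06) that missed the threshold (adjusted p = 0.0788). Tpx2, the activator of Aurora A, had a value of -0.09 and the microtubule bundler Nusap1 a value of -0.03, both with overlapping groups.

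The central spindle genes all had negative values, and none passed the test. Racgap1, the GTPase-activating subunit of centralspindlin, had 1089, 1113, and 984 against 978, 970, and 952 normalized counts, a log2 fold change of -0.13 (SE 0.06, adjusted p = 0.097 by limma). Prc1, which bundles the antiparallel microtubules, had a value of -0.13 (adjusted p = 0.122) with overlapping groups, and 11.1% of its exonic length overlaps Rccd1 on the other strand. Ect2 differed least, with 970, 989, and 1009 against 962, 965, and 953, a log2 fold change of -0.04 (SE 0.05) that turned to 0.01 under quantile normalization. Kif23, the kinesin that pairs with Racgap1 and no member of the list, had 993, 1051, and 984 against 926, 940, and 941, a value of -0.11 (SE 0.05, adjusted p = 0.125).

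Many genes of this stage of the cell cycle carry a cell cycle genes homology region (CHR), a short promoter element through which the DREAM complex and the B-Myb and FoxM1 activators act. The CHR letters TTTGAA or TTCGAA were searched on both strands of the RefSeq promoter windows (GRCm38.p6), which run from 250 bases before to 50 bases after each start. Of the 33 members with a window, 12 (36.36%) held the letters, beside 21.66% of 27025 genes. For 9 members they began between 20 bases before and 40 bases after the start, in a range chosen after the positions were seen, which holds for 3.92% of the genes. These are Anln, Aurka, Cdca8, Cep55, Ect2, Iqgap3, Plk1, Prc1, and Racgap1. The 6 sequences below are shown because they belong to the kinases, central spindle, and midbody genes described here. Each runs 5′ to 3′ on the strand that reads the motif, which is in capitals.
Aurka, chr2:172370521-172370550, minus strand: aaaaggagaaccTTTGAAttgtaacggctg
Plk1, chr7:122159453-122159482, plus strand: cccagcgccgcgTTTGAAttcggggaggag
Prc1, chr7:80294434-80294463, plus strand: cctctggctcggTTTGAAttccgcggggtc
Racgap1, chr15:99651634-99651663, minus strand: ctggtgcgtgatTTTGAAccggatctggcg
Ect2, chr3:27153822-27153851, minus strand: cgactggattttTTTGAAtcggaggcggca
Cep55, chr19:38054996-38055025, minus strand: cgcttccgggagTTTGAAtcccgcggctgt
The 12 members with the letters had negative values (median log2 fold change -0.13), and 3 of them (Aurka, Cep55, and Chmp2b) were lower by the test. Of the 9 with the letters near the start, 2 were lower. The 21 members with a window and no CHR had a median of -0.04, with 2 lower. Aurkb, Incenp, Tpx2, Rock1, Diaph1, Chmp4c, Arf6, and Cntrob have no window and stand in none of these groups. Rock1 was the only higher member and Arf6 was among the lower ones. The lower shares are 25.0% of the 12, 22.2% of the 9, and 9.52% of the 21. They stand beside 14.0% among all genes tested and 19.7% among genes of at least 50 normalized counts. The groups of members were not tested against each other. The CCAAT box was found in 36.36% of the members with a window and in 41.06% of genes. The CArG box, the element of serum response factor, was found in 3 members (Myl9, Chmp2a, and Rab11a), 9.09% beside 1.81% of genes. A match is a description of letters in a window and not of binding.

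RhoA and its effectors gave the only higher member. Rhoa had 560, 522, and 492 normalized counts under LNA Control against 484, 500, and 489 under LNA Malat1, for a log2 fold change of -0.09 (SE 0.06) with overlapping groups. Rock1, the kinase that raises myosin light chain phosphorylation (chr18:10064401-10182045, minus strand, mm10), had 985, 1227, and 1445 against 1569, 1621, and 1561. All 3 LNA Malat1 libraries were above all LNA Control libraries, and the log2 fold change was 0.39 (SE 0.10, adjusted p = 0.0127 by limma). Its paralog Rock2 had 1636, 2035, and 2250 against 1985, 1992, and 1943, with a difference of 0.01 (SE 0.09) on the log2 scale and overlapping groups.

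The 2 kinases shared an uneven control group. In LNA Control, Rock1 spanned 1.47-fold and Rock2 1.38-fold from the lowest to the highest library, while each spanned at most 1.04-fold in LNA Malat1. LNA Control replicate 1 was lowest and replicate 3 highest for both, and for the formins Diaph2 and Diaph3 as well. These 4 transcripts are poor in G and C (40.2% to 42.9% of the exonic bases). Rab11a, Ect2, Vps4b, and Nusap1 are as poor (39.5% to 41.8%) but departed little. Their log2 differences of LNA Control replicate 1 from the other LNA Control libraries were 0.002, -0.042, -0.037, and 0.024. Over the 40 members, the log2 difference of LNA Control replicate 1 from the other LNA Control libraries ran with exonic GC content (Spearman's rho 0.445), as over the 10488 genes of at least 50 normalized counts (0.456). For replicate 3 the values were -0.41 and -0.37. The genes share their libraries, so these are descriptions. The log2 fold changes of the members had a rho of -0.05 with GC content.

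Rock1 was tested again without each library. Without LNA Control replicate 1 the log2 fold change was 0.25 (adjusted p = 0.00584 by limma), and without LNA Control replicate 3 it was 0.53 (adjusted p = 0.000273). It missed the threshold without LNA Control replicate 2 (adjusted p = 0.0509) and without LNA Malat1 replicate 1, 2, or 3 (adjusted p = 0.0563, 0.0619, and 0.0554). The ratio of Rock1 to Rock2 within a library was steadier, at 0.602, 0.603, and 0.642 under LNA Control against 0.791, 0.814, and 0.803 under LNA Malat1. The groups did not overlap, and the log2 ratio differed by 0.38 (p = 0.10, exact permutation test, two-sided, adjusted p = 0.15 over 9 pairs of related members). With 3 against 3 libraries 0.10 is the smallest p that this test can give.

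**Figure D2:**
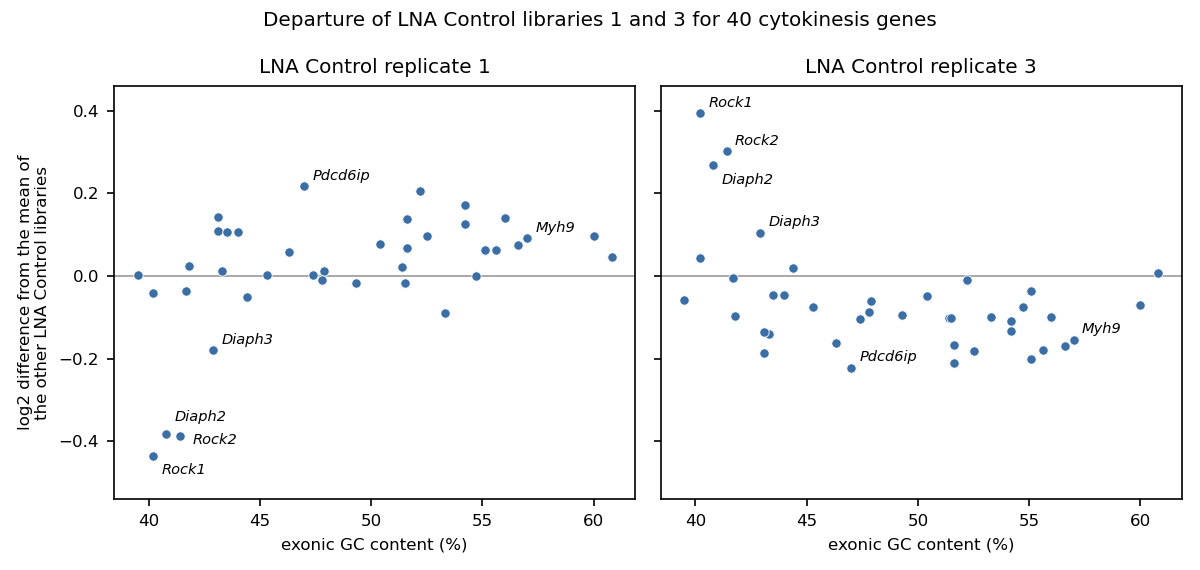
Log2 difference of LNA Control replicate 1 (left) and replicate 3 (right) from the mean of the other LNA Control libraries (y axis) against exonic GC content in percent (x axis), 1 point for each of 40 members. Rock1, Rock2, Diaph2, and Diaph3 lie low in replicate 1 (from -0.44 to -0.18) and high in replicate 3 (from 0.10 to 0.39).

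The remaining RhoA effectors had overlapping groups. The formins Diaph1, Diaph2, and Diaph3 had log2 fold changes of -0.02, 0.09, and -0.01. Citron kinase (Cit), which holds the midbody together, had 840, 761, and 729 normalized counts against 863, 741, and 868, a value of 0.08 (SE 0.07).

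In the contractile ring, a single heavy chain of nonmuscle myosin II fell. Myh10, the heavy chain of nonmuscle myosin IIB (chr11:68691559-68816632, plus strand, mm10), had 2548, 2709, and 2450 normalized counts under LNA Control against 1986, 2002, and 1897 under LNA Malat1. The groups were well apart, with LNA Malat1 at 76.4% of the LNA Control mean and a log2 fold change of -0.39 (SE 0.06, adjusted p = 0.000362 by limma). Myh9, the IIA heavy chain, had 2814, 2778, and 2512 against 2746, 2589, and 2531, a log2 fold change of -0.04 (SE 0.06) with overlapping groups. Myh14, the IIC heavy chain, had 282, 269, and 277 against 342, 280, and 334. Its log2 fold change of 0.20 (SE 0.08, adjusted p = 0.0673) passed without LNA Malat1 replicate 2 (0.29, adjusted p = 0.0126).

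The IIA and IIB chains were also compared within each library. The ratio of Myh9 to Myh10 was 1.10, 1.03, and 1.03 under LNA Control against 1.38, 1.29, and 1.33 under LNA Malat1, a log2 difference of 0.35 with no overlap (p = 0.10, exact permutation test, adjusted p = 0.15 over the 9 pairs). Per kilobase of exon, the level of Myh10 was 246 normalized counts in LNA Control and 188 in LNA Malat1, that of Myh9 209 and 203, and that of Myh14 37.9 and 43.8. On this scale of levels Myh10 was the highest of the 3 chains in LNA Control and Myh9 in LNA Malat1. The scale divides by all annotated exonic bases of a gene, which need not be the length of the transcripts expressed. By mean normalized counts Myh9 was above Myh10 in LNA Control (2701.3 against 2569.0) and in LNA Malat1 (2622.0 against 1961.7). The order of the 2 chains in LNA Control therefore depends on the length used.

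The other contractile ring members did not pass the test. The regulatory light chains Myl9, Myl12a, and Myl12b had log2 fold changes of -0.06, 0.03, and -0.19. Myl12b was low, at 52, 43, and 47 normalized counts against 39, 41, and 44, and 26.7% of its exonic length overlaps another locus of the same name on the same strand, as does 13.8% of that of Myl12a, so the share of reads of both is uncertain. Anillin (Anln), which ties actin, myosin, and septins together, had 1433, 1479, and 1382 against 1367, 1478, and 1438, a log2 fold change between -0.01 and 0 (SE 0.05). The scaffold Iqgap1 had 2465, 2615, and 2377 against 2231, 2299, and 2274, with groups apart and a log2 fold change of -0.13 (SE 0.06, adjusted p = 0.104 by limma). Iqgap3 had a value of -0.10 with overlapping groups.

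**Figure D3:**
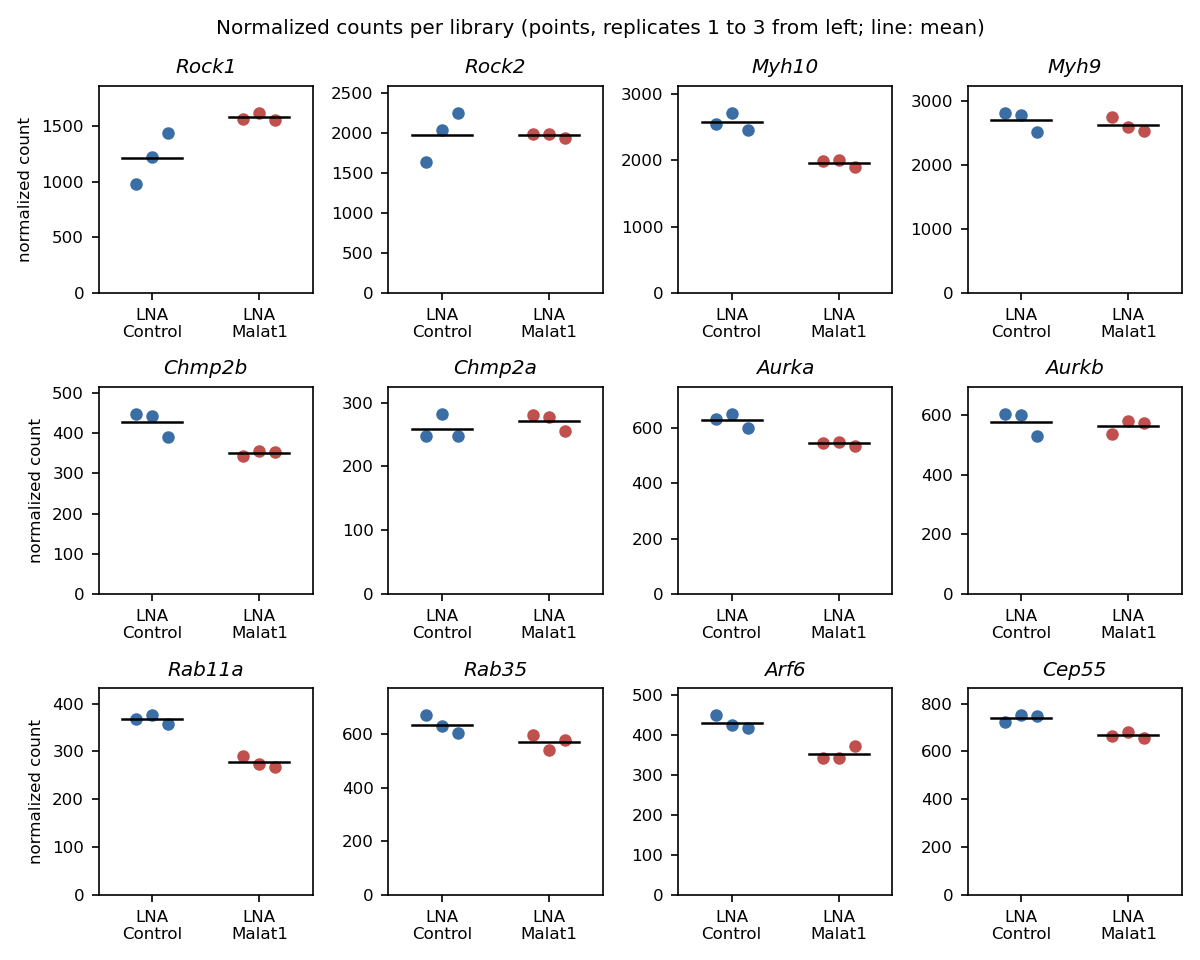
Normalized counts (y axis, from 0) of 12 members in each library, with replicates 1 to 3 of LNA Control in blue and of LNA Malat1 in red and a line at the mean. Myh10, Chmp2b, Aurka, Rab11a, Rab35, Arf6, and Cep55 have all red points below all blue points, while Rock2, Myh9, Chmp2a, and Aurkb overlap and Rock1 is higher.

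Of the midbody and ESCRT genes, Chmp2b and Cep55 were lower. Chmp2b, a subunit of the ESCRT-III filament (chr16:65539128-65562726, minus strand, mm10), had 448, 442, and 391 normalized counts under LNA Control against 343, 356, and 354 under LNA Malat1. The groups did not overlap, and the log2 fold change was -0.28 (SE 0.06, adjusted p = 0.00575 by limma). Its paralog Chmp2a had 248, 282, and 247 against 280, 277, and 256, a value of 0.07 (SE 0.07) with overlapping groups. The ratio of Chmp2a to Chmp2b was 0.555, 0.639, and 0.633 under LNA Control against 0.817, 0.779, and 0.724 under LNA Malat1, a log2 difference of 0.35 (p = 0.10, exact permutation test, adjusted p = 0.15 over the 9 pairs).

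Cep55, the midbody protein that recruits Alix and Tsg101 (chr19:38055011-38074423, plus strand, mm10), had 723, 752, and 747 normalized counts against 666, 681, and 658. The log2 fold change of -0.15 (SE 0.05, adjusted p = 0.0395 by limma) was the smallest that passed. It missed the threshold without any 1 of the libraries except LNA Control replicate 1, with adjusted p = 0.112 without LNA Control replicate 2, 0.0513 without replicate 3, and 0.121, 0.0753, and 0.129 without LNA Malat1 replicates 1, 2, and 3. Tsg101 of ESCRT-I had 175, 162, and 163 against 185, 191, and 188, with all LNA Malat1 libraries above and a log2 fold change of 0.17 (SE 0.07, adjusted p = 0.0892). Pdcd6ip (Alix) had a value of -0.10 with overlapping groups.

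The enzymes of abscission differed little. Vps4a and Vps4b, the ATPases that remodel ESCRT-III, had log2 fold changes of -0.06 and -0.07, and the groups overlapped in the ratio of Vps4a to Vps4b (p = 0.90, exact permutation test). Spast (spastin), which severs the bridge microtubules, had a value of 0.02 (SE 0.05), and Chmp4b, the main filament subunit, a value of -0.08 (SE 0.07). Chmp4c, the abscission checkpoint subunit, was barely detected, with 1, 1, and 3 normalized counts under LNA Control against 5, 5, and 4 under LNA Malat1, and was not tested.

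Of the small GTPases of membrane delivery, Rab11a and Arf6 were lower, and Rab11a fell most among the members, followed by Myh10. Rab11a, of the recycling endosome (chr9:64715299-64737758, minus strand, mm10), had 367, 376, and 357 normalized counts under LNA Control against 290, 274, and 267 under LNA Malat1. The groups were well apart, with LNA Malat1 at 75.5% of the LNA Control mean and a log2 fold change of -0.40 (SE 0.06, adjusted p = 0.000313 by limma). Arf6, which acts in endosome recycling to the furrow (chr12:69372150-69373783, plus strand, mm10), had 449, 424, and 416 against 341, 342, and 372. Its log2 fold change was -0.29 (SE 0.06, adjusted p = 0.00332), and 13.6% of its exonic length overlaps Gm9887 on the other strand.

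Rab35, which clears phosphoinositide from the bridge, had 672, 630, and 603 normalized counts against 596, 543, and 580. Its groups did not overlap, but the log2 fold change of -0.15 (SE 0.06) missed the threshold (adjusted p = 0.0791 by limma). Centrobin (Cntrob), a centriole protein, had 286, 274, and 273 against 304, 275, and 304, a value of 0.08 (SE 0.06) with overlapping groups.

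**Figure D4:**
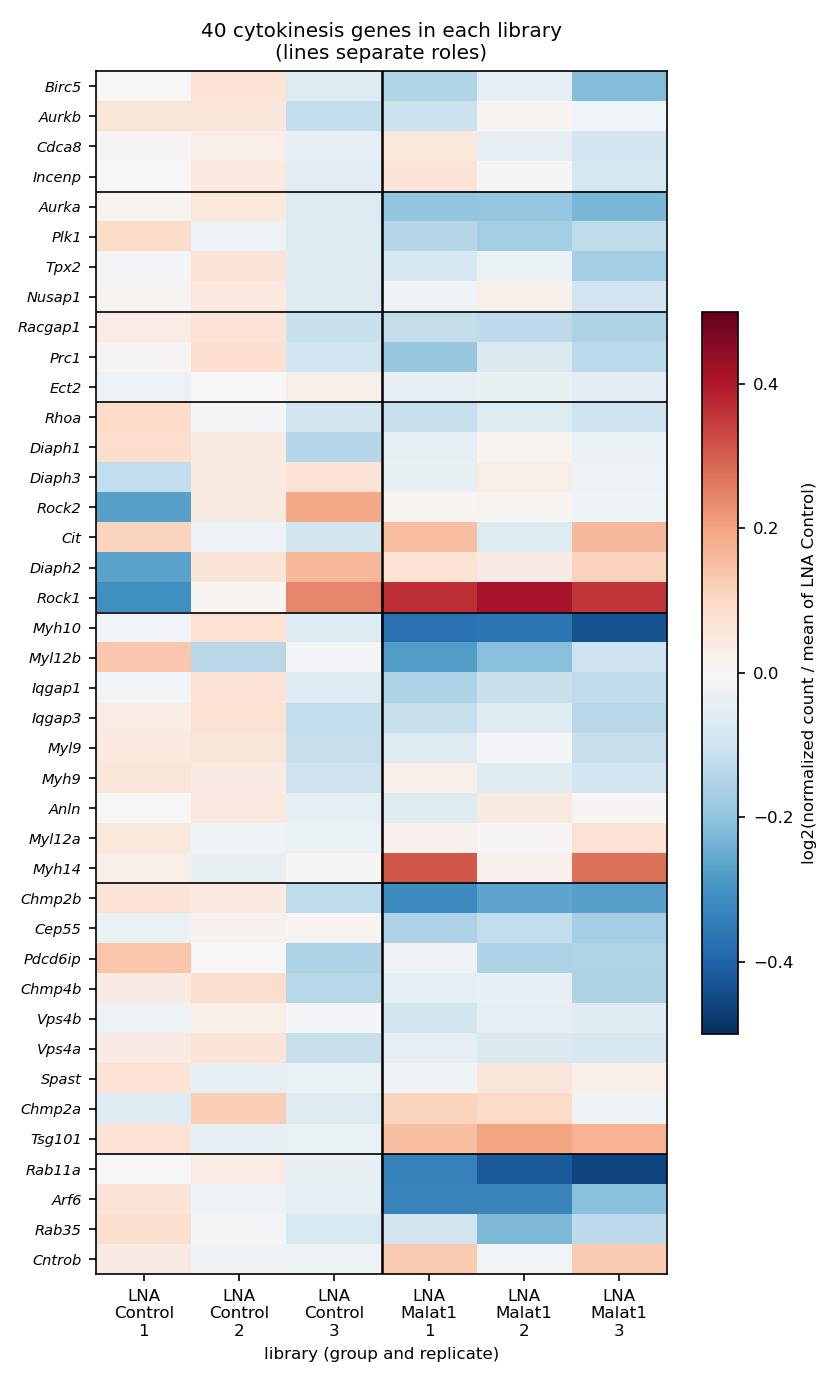
Each of the 40 members (rows, grouped by role and ordered by fold change) in each of the 6 libraries (columns), coloured by the log2 ratio of its normalized count to the LNA Control mean. Rab11a, Myh10, and Arf6 are below the LNA Control mean in all 3 LNA Malat1 libraries, and Rock1, Rock2, and Diaph2 vary most among the LNA Control libraries.

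Further genes of the same processes were counted in 9 lists, which hold no member. They comprise 127 genes, of which 125 were tested, and 15 were higher and 32 lower in LNA Malat1 (limma adjusted p of at most 0.05). The lower share was 25.6%, beside 14.0% among all genes tested and 19.7% among genes of at least 50 normalized counts. The 15 higher genes stand beside 14.3% and 12.2%, and the counts of each list are read against the same shares. The higher count fell to between 3 and 9 without LNA Control replicate 1 or 2 or any 1 LNA Malat1 library, and was 17 without LNA Control replicate 3. The lower count lay between 24 and 41. At 1.5-fold as well, 2 were higher (Septin1 and Cenpf) and 5 lower (Septin4, Exoc4, Exoc2, Rbl2, and Exoc8).

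The exocyst, the complex of 8 subunits that tethers vesicles to the plasma membrane and the bridge, held 3 of those 5. Exoc2 (Sec5) had 399, 433, and 420 normalized counts under LNA Control against 236, 233, and 242 under LNA Malat1, for a log2 fold change of -0.81 (SE 0.06, adjusted p = 1.22e-06 by limma). Exoc4 (Sec8) had 829, 936, and 979 against 500, 534, and 521, a log2 fold change of -0.82 (SE 0.06, adjusted p = 2.52e-06). Exoc8 (Exo84) had 497, 520, and 518 against 330, 345, and 344, a value of -0.59 (SE 0.05, adjusted p = 7.75e-06). All 3 kept their direction and side of the adjusted p under the 16 alternatives run, but Exoc8 lies at the 1.5-fold limit and fell short of it under 8 of them.

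The subunits did not move together. Exoc3, Exoc6, and Exoc6b were also lower, with log2 fold changes of -0.16, -0.44, and -0.23, while Exoc5 was higher (0.20, adjusted p = 0.0357 by limma) and Exoc1 and Exoc7 did not pass (0.03 and 0.05). Exoc6 (Sec15) is the subunit that binds Rab11, and Exoc5 (Sec10) the one that binds Arf6. Of the 18 genes tested in the exocyst and abscission vesicle list, 7 were lower and 2 higher. The other lower gene was Rab8a (-0.26) and the other higher gene the SNARE Stx16 (0.16), and the Rab11 adaptor Rab11fip3 had a value of -0.05 that did not pass.

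Among 16 genes of RhoA regulation, 5 were lower (31.2%, beside 19.7% of genes of at least 50 normalized counts) and 1 higher. The exchange factors Arhgef11 and Arhgef12, which activate RhoA downstream of G protein-coupled receptors, and Arhgap35 (p190A), which inactivates it, fell by 0.58, 0.57, and 0.56 on the log2 scale, just short of 1.5-fold. Arhgef12 had 3739, 3777, and 3307 normalized counts under LNA Control against 2431, 2480, and 2386 under LNA Malat1. Rhob and the inhibitor Arhgdia were also lower (-0.23 and -0.26), and Arhgap1 was higher (0.20). The genes that fell thus included activators of RhoA (Arhgef11 and Arhgef12) as well as inhibitors (Arhgap35 and Arhgdia). Arhgef1, Arhgef2, Arhgef28, and Net1 of the same list did not pass.

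Of 11 septins tested, 3 were higher and 2 lower. Septin1 had 68, 60, and 77 normalized counts under LNA Control against 142, 114, and 129 under LNA Malat1, for a log2 fold change of 0.90 (SE 0.12, adjusted p = 0.000174 by limma). Septin4 had 40, 52, and 53 against 30, 18, and 25, a value of -0.98 (SE 0.21, adjusted p = 0.00469). Both are scarce beside Septin9, which acts in abscission and fell by 0.28 on the log2 scale (887, 871, and 828 against 699, 702, and 721), and beside Septin11 and Septin7, which did not pass (-0.02 and -0.08).

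The smaller changes were spread over the remaining lists. Of 26 further ESCRT genes, 6 (23.1%, near the 19.7% of genes of at least 50 normalized counts) were lower (Chmp3, Mitd1, Stam2, Vps37b, Mvb12a, and Vta1, from -0.37 to -0.18) and 2 higher (Vps37a and Mvb12b). Among the cortical actin genes Pfn2 and Sh3kbp1 were lower and Actn1 higher, and of 10 regulators of myosin light chain the phosphatase subunit Ppp1r12b was lower (-0.38) and Mylk3, the cardiac light chain kinase, higher (0.27). None of the 5 central spindle kinesins passed, by limma, and 1 was higher and 1 lower at an unadjusted p of at most 0.05.

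Regulators of genes expressed in G2 and mitosis included some that fell more than any member. Rbl2 (p130), a pocket protein of the DREAM complex, had 376, 379, and 388 normalized counts under LNA Control against 227, 250, and 249 under LNA Malat1. Its log2 fold change was -0.65 (SE 0.06, adjusted p = 9.86e-06 by limma). Rbl1 and E2f4 of the same list had values of -0.05 and -0.05 that did not pass. Mybl2 (B-Myb), an activator, had 667, 624, and 592 against 443, 462, and 460, a value of -0.46 (SE 0.06, adjusted p = 8.66e-05). Rbbp4 and Tfdp1 were lower (-0.29 and -0.26) and Lin9 was higher (0.19), while Foxm1 had a value of 0.03 that did not pass.

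Of the 13 mitotic markers, 4 were lower (Ccna2, Ccnb1, Cdk1, and Bub1b, from -0.26 to -0.17) and 4 higher (Bub1, Ttk, Ube2c, and Cenpf). Each count is 30.8%, beside 19.7% lower and 12.2% higher among genes of at least 50 normalized counts. Bub1 passed narrowly (adjusted p = 0.049 by limma) with overlapping groups. In LNA Control, Bub1, Ttk, and Cenpf were lowest in replicate 1 and highest in replicate 3, while Ube2c was lowest in replicate 2. Mki67 had 3273, 4477, and 4419 normalized counts against 4446, 4411, and 4235, a log2 fold change of 0.12 (SE 0.10) with overlapping groups. Cenpf had 735, 1346, and 1686 against 1846, 1804, and 1774. Its log2 fold change of 0.61 (SE 0.21, adjusted p = 0.045 by limma) became 0.26 without LNA Control replicate 1 and 0.86 without LNA Control replicate 3, the same pair of libraries in which Rock1 was lowest and highest. It missed the threshold without LNA Control replicate 2 (adjusted p = 0.084) or without LNA Malat1 replicate 1, 2, or 3 (0.143, 0.127, and 0.132).

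**Figure D5:**
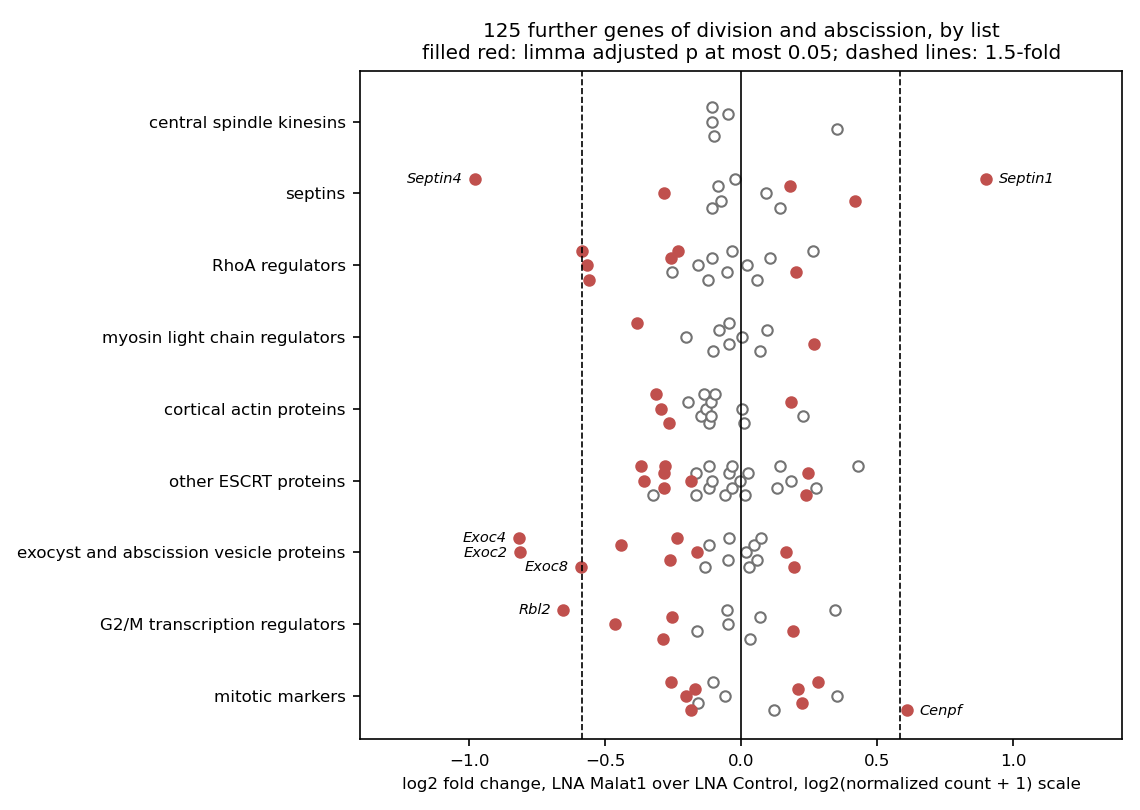
Log2 fold change of LNA Malat1 over LNA Control (x axis, log2(normalized count + 1) scale) of 125 further genes in 9 lists (rows), 1 point for each gene. Filled red points passed a limma adjusted p of 0.05, the dashed lines mark 1.5-fold, and the 7 named genes passed both, from Septin4 (-0.98) to Septin1 (0.90).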

How the data were processed

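Reads of the 6 libraries were, by the study's methods and the submitters' processing notes, trimmed with Trimmomatic 0.39, aligned to mm10 with STAR 2.7.7a, counted on exons with featureCounts 1.6.5, and tested with DESeq2 1.30.0. Reads on more than one gene were left out, and whether counting used the strand is not given in the sources used here. What the authors deposited is not raw counts but a score, each count being divided by 1 factor per library and rounded (normalized counts). The factors were recovered from the numbers that rounding skips, which gave the reads per library. Genes with a mean of at least 5 entered a two-sided limma test (lmFit and eBayes with a trend, limma 3.58.1, R 4.3.3) of log2(normalized count + 1), and p-values were adjusted after Benjamini and Hochberg over 15650 genes. On data simulated for this comparison over 15444 genes, 45 of 64 genes changed by 1.5-fold passed the adjusted p. So did 55 of 66 changed by 2-fold, 57 of 63 changed by 3-fold, and 9 of 15251 unchanged genes. The simulation gave every library the same independent noise, unlike the data. There the chi-square per gene was 1.77 to 4.18 between LNA Control libraries and 0.949 to 1.16 between LNA Malat1 libraries. The simulated pass rates may therefore not hold for the data. Thresholds (adjusted p 0.05, fold change 1.5) follow the study. GC content and exon length are from GENCODE M21 on the same build, where all 41 members have the same coordinates. Fold changes understate the change of low genes, and precision is limited by 3 libraries per group.

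The members and the lists were chosen with earlier results of these data known. The text names all members by role, the genes of the further lists that passed 1.5-fold, and Kif23. Other genes of those lists were named after their values were seen. The pairs of related members were tested with an exact permutation test. Alternatives were a replicate block, other pseudocounts (0.1 and 5), scalings, and filters, voom weights on recovered reads, merging LNA Malat1 replicates 1 and 3 into 1 sample, and leaving out each library. For the further lists they were chosen after seeing the data. Some items are not reported here.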

Additional observations from a re-analysis of the deposited data

How the results depend on the processing

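Myh10, Rab11a, Arf6, and Chmp2b stayed lower past the threshold under all 16 alternatives run, Aurka under 14, and Cep55 under 7. Rock1 stayed higher past the threshold under 11. The count of higher members, 1, became 2 with the replicate block or quantile normalization, 3 with equal library totals or voom weights, 0 with LNA Malat1 replicates 1 and 3 merged into 1 sample, and 0 to 1 with each library left out. The count of lower members, 6, lay between 4 and 12 with a library left out. Myh14 was the member added by the replicate block, which changed no other member's call. Same-numbered libraries of the 2 groups deviated together weakly (correlations of 0.086, 0.182, and 0.083 over 10490 genes), each correlating best with its own number, a hint from the data and not from the design. The members' median of -0.06 was -0.005 under quantile normalization. In the further lists, the higher count of 15 was 8 with no filter, 6 with replicates 1 and 3 as 1 sample, and 3 to 17 with a library left out. The 2 genes called upregulated were 1 with a pseudocount of 0.1, no filter, a mean of at least 50, or replicates 1 and 3 as 1 sample, 0 at a fold change of 2, and 1 to 2 with a library left out. The 5 called downregulated were 0 at a fold change of 2. Values near 0 changed sign for Aurkb (0.024 under quantile normalization, 0.001 with equal totals, 0.005 with voom), Ect2 (0.008 under quantile normalization), and Rock2 (-0.006 under median-of-ratios scaling and from -0.117 to 0.113 with a library left out, the lowest without LNA Control replicate 1). For the differences other than those that leave out samples or genes, the cause was not tested.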

Other observations

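Genes carrying the Gene Ontology terms of division in the authors' table were counted after the values had been seen. Of 77 tested genes with the term cytokinesis that are no members, 7 were higher (9.09%) and 15 lower (19.5%) in LNA Malat1 (limma adjusted p of at most 0.05), beside 12.2% and 19.7% of genes of at least 50 normalized counts and 14.3% and 14.0% of all genes tested, and 4 of them reached 1.5-fold. Bin3, which was lower, had a mean of 158.7 normalized counts under LNA Control and 98.7 under LNA Malat1 (log2 fold change -0.68). Igf1r, the receptor of insulin-like growth factor 1, was lower with 1907, 1575, and 1526 against 1031, 995, and 1109 (-0.67). Zfp365 was higher with a mean of 100.3 against 170.7 (0.77), and Tex14, which blocks abscission in germ cells and keeps their bridges open, was higher at a low level with 10, 9, and 9 against 24, 18, and 18 (1.01). Of 77 tested genes with the term midbody that are no members, 5 were higher (6.49%) and 17 lower (22.1%). Of 13 genes with the term exocyst, 6 were lower (46.2%) and 2 higher (15.4%). The lower genes that reached 1.5-fold are Exoc2, Exoc4, and Exoc8, already described above, so this count overlaps the exocyst list and adds no separate result for them. Exoc3l, an Exoc3-like gene, was among the higher, with 12, 11, and 20 normalized counts against 32, 36, and 39, or 249% of the LNA Control mean.

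Among the members, the log2 fold change had a Spearman's rho of 0.37 with the genomic span of the gene and 0.33 with its exonic length. All genes tested had -0.19 and -0.12, and the 10488 genes of at least 50 normalized counts had -0.12 and 0.02. These are descriptions over 40 genes of the same libraries.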
